A study of Mus musculus with 9 samples.

Results

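Complex I, the NADH:ubiquinone oxidoreductase of the inner mitochondrial membrane, was followed in mouse 8-cell embryos through the RNA of its nuclear-encoded subunits and assembly factors. The members were all entries whose symbol begins with Ndufa, Ndufab, Ndufaf, Ndufb, Ndufc, Ndufs or Ndufv followed by a number, with hyphenated symbols left out. This gave 49 of 55335 entries, of which 46 were annotated as protein coding and 3 (Ndufb4c, Ndufa11b and Ndufs6b) as processed pseudogenes. A mean of at least 1 FPKM (fragments per kilobase of transcript, scaled to the size of the library) over the 9 libraries was reached by 47 members and by 13011 entries in all. Of the remaining members, Ndufa4l2 was listed at 0 in every library and Ndufa11b ranged from 0 to 0.77 FPKM.

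The embryos came from ICR mice by in vitro fertilization and were injected with siRNA as zygotes. Control embryos received nontargeting siRNA, MFN1-KD embryos siRNA against Mfn1, and H3.3-KD embryos siRNA against both H3f3a and H3f3b, so that every group was an injected group. MFN1 fuses outer mitochondrial membranes, and H3f3a and H3f3b encode the histone variant H3.3. Each group had 3 libraries, each made from polyA RNA of pooled embryos. The labels put the pool at 5 to 10 embryos, whereas the methods name 10. The age of the females was not in the labels. Since nothing tied the pools to separate females or injection days, p-values measure the spread between these pools, which may in part be technical. In pooled embryos, fewer cells and less RNA per cell cannot be told apart.

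Complex I oxidises NADH, passes the electrons to ubiquinone and pumps protons out of the mitochondrial matrix. Its peripheral arm carries the N module, where NADH is oxidised, and the Q module, where ubiquinone is reduced, while its membrane arm has a proximal and a distal part that hold the proton pumps. A set of core subunits carries out the chemistry, the hydrophobic ones being encoded in mitochondrial DNA and the others in the nucleus. Accessory subunits, all nuclear, surround the core, and assembly factors join the modules and leave before the enzyme is finished. Cleavage-stage mouse embryos rely on mitochondria inherited from the oocyte and on oxidation of pyruvate.

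The targeted transcripts were low in the embryos injected against them. H3f3a was 1594, 2092 and 2110 FPKM in the control libraries and 170, 117 and 161 FPKM in the H3.3-KD libraries, or 7.72% of the control mean, and H3f3b stood at 8.24% of control. Mfn1 was 51.6, 22.6 and 23.8 FPKM in control, 9.54, 4.40 and 1.15 FPKM in MFN1-KD (15.4% of control) and 100, 89.5 and 40.02 FPKM in H3.3-KD. Of 12 listed 8-cell embryo genes, 9 to 11 reached 1 FPKM in each library, led by Dppa3, a maternal and early embryonic gene (6244 to 20351 FPKM). By limma 4 of 11 tested rose and 1 fell in H3.3-KD, where 21.8% of all genes rose and 9.12% fell. Pou5f1, a pluripotency factor, was among those that rose (5.10 to 8.90 FPKM in control, 63.1 to 392 in H3.3-KD). Dppa3 was the 1 that fell (-0.88, limma adjusted p = 0.0025). Of 12 markers of cumulus and granulosa cells, the cells that surround the oocyte, Amhr2 alone reached 1 FPKM in a library, Fshr and Inhba were at 0 in all 9, and the summed level was 16.4 to 30.1 FPKM in control, 39.1 to 68.1 in H3.3-KD and 10.8 to 20.5 in MFN1-KD. Amhr2 rose in H3.3-KD (1.11, limma adjusted p = 0.0327). The part of embryo stage and of such cells in the results that follow was not tested. The summed level of 6 sperm and spermatid markers was 0 to 2.93 FPKM. The third library of MFN1-KD listed 15577 entries above 0, fewer than the others (19250 to 24820).

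In control embryos the members' levels per length of transcript ran from 2.25 to 664 FPKM. Ndufa4, a small membrane protein long counted with complex I and later assigned to cytochrome c oxidase, had the highest mean (664 ± 80.4 FPKM, SD, n = 3). Ndufc1 and Ndufa1 of the membrane arm (546 ± 78.6 and 535 ± 86.0 FPKM) followed, and their libraries overlapped with those of Ndufa4 and with each other. At the lower end stood Ndufv1, which binds NADH and the flavin (20.4 FPKM), the assembly factors Ndufaf5 (13.1 FPKM) and Ndufaf3 (2.25 FPKM), and the pseudogene Ndufs6b (2.39 FPKM). The median member was at 118 FPKM in control, 59.3 FPKM in H3.3-KD and 87.7 FPKM in MFN1-KD, and 27, 13 and 23 members, respectively, were at 100 FPKM or more.

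The summed level of the members separated H3.3-KD from the other groups. Of all FPKM in a library, the members took 0.674, 0.675 and 0.705% in control, 0.448, 0.393 and 0.270% in H3.3-KD, and 0.711, 0.828 and 0.642% in MFN1-KD. All H3.3-KD libraries lay below all control libraries, and the MFN1-KD libraries lay on both sides of them.

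**Figure D1:**
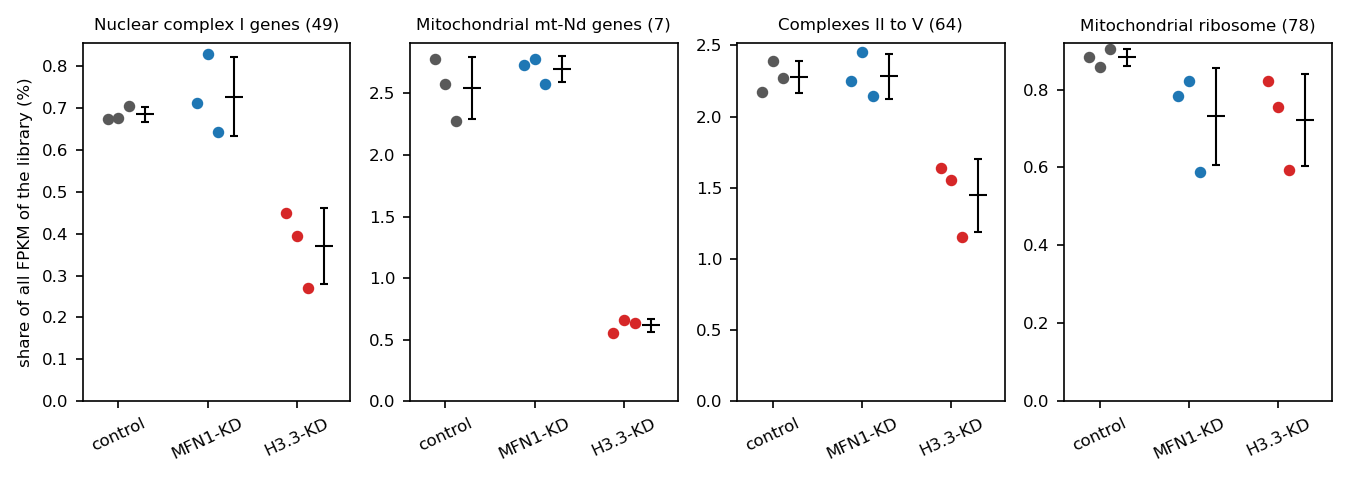
Percent of all FPKM in each library (points; bars give the mean ± SD of 3 libraries per group) taken by the 49 nuclear complex I genes, the 7 mitochondrially encoded subunits, complexes II to V and mitochondrial ribosomal proteins. The nuclear complex I genes took 0.674 to 0.705% in control, 0.270 to 0.448% in H3.3-KD and 0.642 to 0.828% in MFN1-KD.

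The effect of lowering H3.3 on these genes was tested with limma on log2(FPKM + 1) over all 13011 genes. Of the 47 members tested, 28 fell and 0 rose in H3.3-KD against control at a Benjamini-Hochberg adjusted p under 0.05. Among all genes tested, 9.12% fell and 21.8% rose. At an unadjusted p under 0.05, 33 members were lower and 1 higher (13.2% and 28.9% of all genes). With the threshold the study used, a change above 2-fold with p under 0.05 before adjustment, 26 members were lower and 0 higher, against 9.39% and 23.9% of all genes. In 40 members every H3.3-KD library lay below every control library, and in 1, Ndufa10, every one lay above (18.9% and 34.5% of all genes). The median log2 fold change of the members was -1.02, where that of all genes tested was 0.26, a difference of -1.28. The third H3.3-KD library was the lowest of its group for 42 of 47 members (40.2% of all genes). Without it 21 members fell, 1 rose and the median was -0.85. Without the third control library 18 fell. The share of all genes that fell was 6.57% and 5.14% in these 2 settings.

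**Figure D2:**
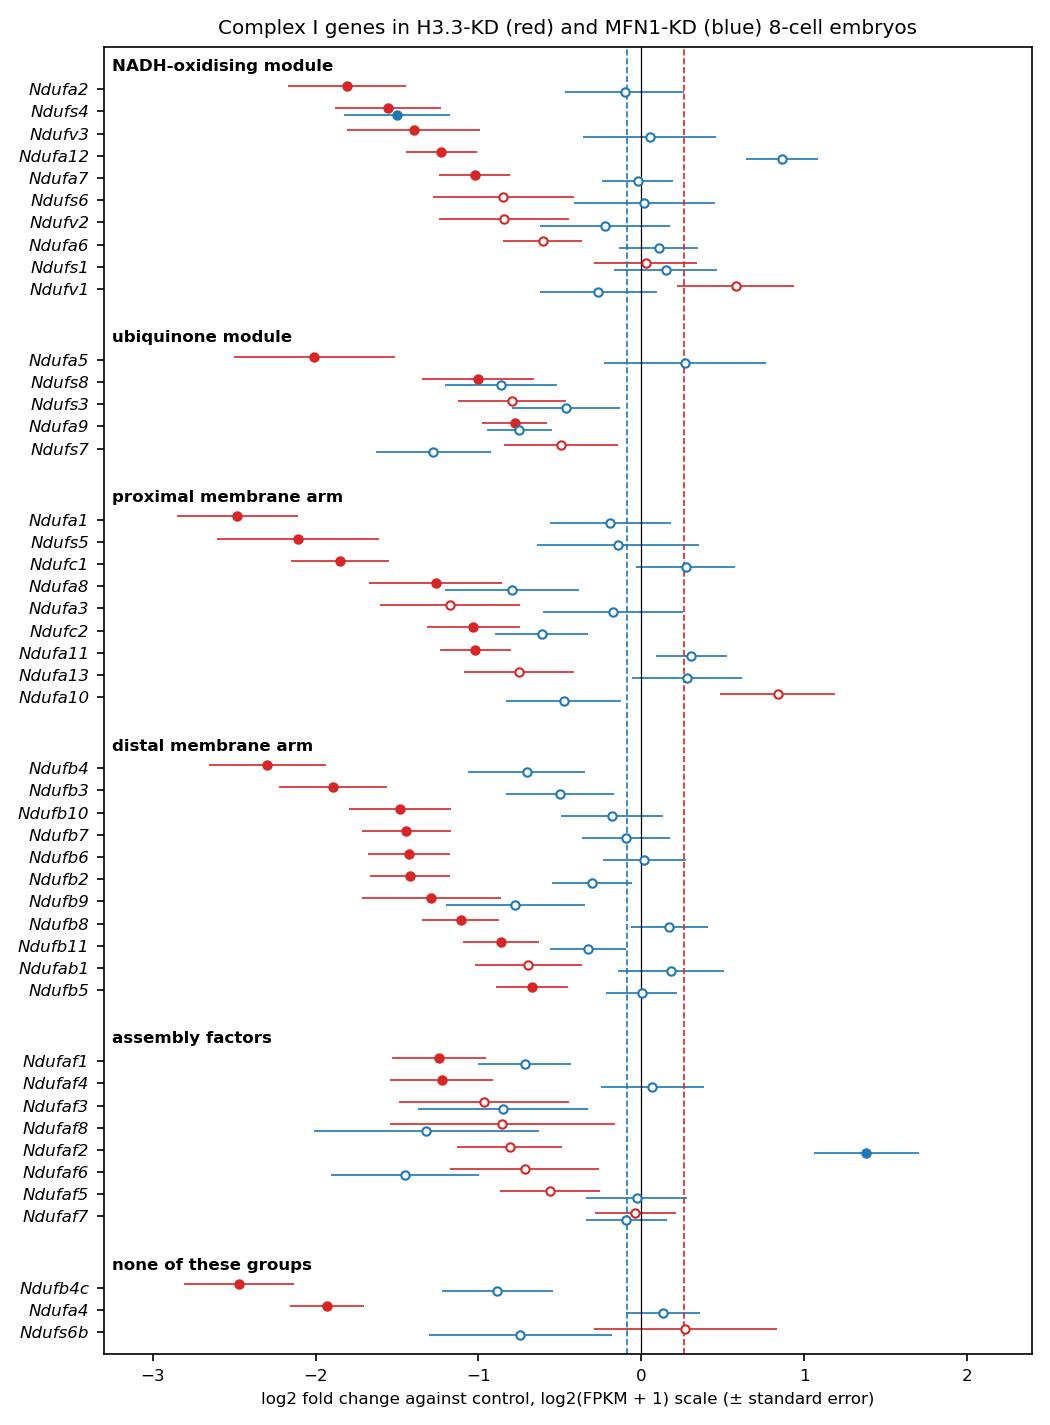
Log2 fold change against control (horizontal axis, log2 FPKM + 1 scale; bars give the SE) of 46 of the 47 tested members, in rows by role, for H3.3-KD (red) and MFN1-KD (blue); filled points had an adjusted p under 0.05 and dashed lines mark the median of all genes tested. Most red points lie left of the dashed line, 28 of them filled, while 2 blue points are filled.

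The 7 nuclear core subunits hold the flavin, the iron-sulphur clusters and the ubiquinone site, and in H3.3-KD 6 had a log2 fold change under the all-gene median of 0.26. A single one, Ndufs8, an iron-sulphur protein of the Q module, passed the test. It was 215, 260 and 281 FPKM in control, against 159, 144 and 84.7 FPKM in H3.3-KD (log2 fold change -1.003, SE 0.34, limma adjusted p = 0.0474), and its adjusted p over the alternatives tried ranged from 0.00332 to 0.158. The median log2 fold change of the core subunits was -0.49, which became -0.84 and -0.92 with median-ratio and upper-quartile rescaling and -0.75 with trends in GC content and length removed. Ndufs1, the largest iron-sulphur subunit, was 45.6, 32.1 and 25.5 FPKM in control, against 42.6, 40.4 and 23.0 FPKM in H3.3-KD, groups that overlapped, and its log2 fold change of 0.03 (limma adjusted p = 0.963) turned to -0.31 and -0.39 when libraries were rescaled by median ratios or upper quartiles. Ndufv1 was 24.4, 21.7 and 15.03 FPKM in control, against 37.4, 33.8 and 22.1 FPKM in H3.3-KD (0.58, SE 0.36, limma adjusted p = 0.246), and its direction turned, to -0.25, when trends with GC content and length were removed. For Ndufs7, Ndufs3 and Ndufv2 the values were -0.49, -0.79 and -0.85 (limma adjusted p = 0.317, 0.0955 and 0.135). The number of core subunits that fell was 3 under either rescaling and with the trends removed, and 0 without any single control library. Of all genes, 13.7% and 15.1% fell under the rescalings and 11.2% with the trends removed. Without a single control library 5.14 to 7.56% fell.

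The 29 accessory subunits carried most of the calls. By limma 23 fell and 0 rose in H3.3-KD (9.12% and 21.8% of all genes), with a median log2 fold change of -1.26. At an unadjusted p under 0.05, 26 were lower and 1 higher (13.2% and 28.9% of all genes). Without the third control library 15 fell, and 5.14% of all genes. Whether core and accessory subunits differ in response was not tested, and the groups also differed in transcript length, with a median of 1623 bases for core and 763 for accessory subunits.

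In the N module 5 of 10 members fell, with a median of -0.93, where 9.12% of all genes fell. Ndufa12, an accessory subunit of this module, was 338, 383 and 449 FPKM in control, against 204, 169 and 130 FPKM in H3.3-KD (-1.23, SE 0.22, limma adjusted p = 0.00253). Ndufa2, a small accessory subunit, was 237, 273 and 316 FPKM in control, against 88.6, 124 and 42.1 FPKM in H3.3-KD (-1.81, SE 0.37, limma adjusted p = 0.00457). Ndufs4, an accessory subunit whose loss causes a form of Leigh syndrome, was 53.0, 70.7 and 77.04 FPKM in control, against 22.2, 30.5 and 15.2 FPKM in H3.3-KD (-1.56, SE 0.33, limma adjusted p = 0.00537). For these 3 genes every H3.3-KD library lay below every control library. With either rescaling 8 members of the module fell, where 13.7% (median-ratio) and 15.1% (upper-quartile) of all genes fell.

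In the Q module 3 of 6 members fell, with a median of -0.79. Ndufa5, an accessory subunit of this module, was 218, 210 and 306 FPKM in control, against 91.0, 105 and 21.4 FPKM in H3.3-KD (-2.01, SE 0.50, limma adjusted p = 0.0122). Ndufa9, which sits beside the ubiquinone channel, was 153, 129 and 141 FPKM in control, against 80.7, 93.5 and 72.6 FPKM in H3.3-KD (-0.78, SE 0.20, limma adjusted p = 0.0147). Each of the 3 calls was lost without the third control library, where the adjusted p was 0.0559 for Ndufa5 and 0.0519 for Ndufa9. In that setting 5.14% of all genes fell, against 9.12% with all libraries. Leaving out the third H3.3-KD library moved the value of Ndufa5 to -1.29.

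In the proximal membrane arm 6 of 9 members fell, with a median of -1.17, where 9.12% of all genes fell. Ndufa1, a single-span membrane subunit on the X chromosome, was 504, 469 and 632 FPKM in control, against 140, 93.0 and 64.1 FPKM in H3.3-KD, 18.5% of the control mean (-2.48, SE 0.37, limma adjusted p = 0.000957). Ndufc1 was 457, 578 and 604 FPKM in control, against 186, 184 and 98.2 FPKM in H3.3-KD (-1.85, SE 0.30, limma adjusted p = 0.00158). Ndufa11, a membrane subunit with several spans, was 323, 443 and 477 FPKM in control, against 209, 240 and 163 FPKM in H3.3-KD (-1.02, SE 0.22, limma adjusted p = 0.00594). The groups did not overlap for any of these 3 genes. Ndufs5, which faces the intermembrane space, changed by -2.11 (limma adjusted p = 0.00992).

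Ndufa10, an accessory subunit with a nucleoside kinase fold, was the member with the highest log2 fold change in H3.3-KD. It was 25.9, 19.8 and 21.9 FPKM in control, against 53.9, 46.6 and 27.0 FPKM in H3.3-KD. Every H3.3-KD library lay above every control library, yet the difference (0.84, SE 0.35) missed the threshold, with a limma adjusted p = 0.0967. Without the third H3.3-KD library it was 1.13 (limma adjusted p = 0.0442).

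In the distal membrane arm 10 of 11 members fell, the highest share among the role groups, with a median of -1.42. In all 11 every H3.3-KD library lay below every control library. Of all genes, 9.12% fell, and 18.9% had every H3.3-KD library below every control library. Ndufb4, an accessory subunit that spans the membrane, was 43.6, 38.7 and 59.4 FPKM in control, against 9.83, 12.6 and 5.11 FPKM in H3.3-KD (-2.30, SE 0.36, limma adjusted p = 0.00123). Ndufb2 was 267, 436 and 351 FPKM in control, against 140, 136 and 110 FPKM in H3.3-KD (-1.42, SE 0.25, limma adjusted p = 0.00212). Ndufb3, a small membrane subunit, was 88.1, 124 and 132 FPKM in control, against 44.9, 29.0 and 19.96 FPKM in H3.3-KD (-1.89, SE 0.33, limma adjusted p = 0.00222). The smallest change that passed was that of Ndufb5 (-0.67, SE 0.22, limma adjusted p = 0.0419), which passed in 9 of 17 alternatives. Ndufab1, the mitochondrial acyl carrier protein that also serves fatty acid synthesis, was the member that did not pass (-0.69, limma adjusted p = 0.134).

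**Figure D3:**
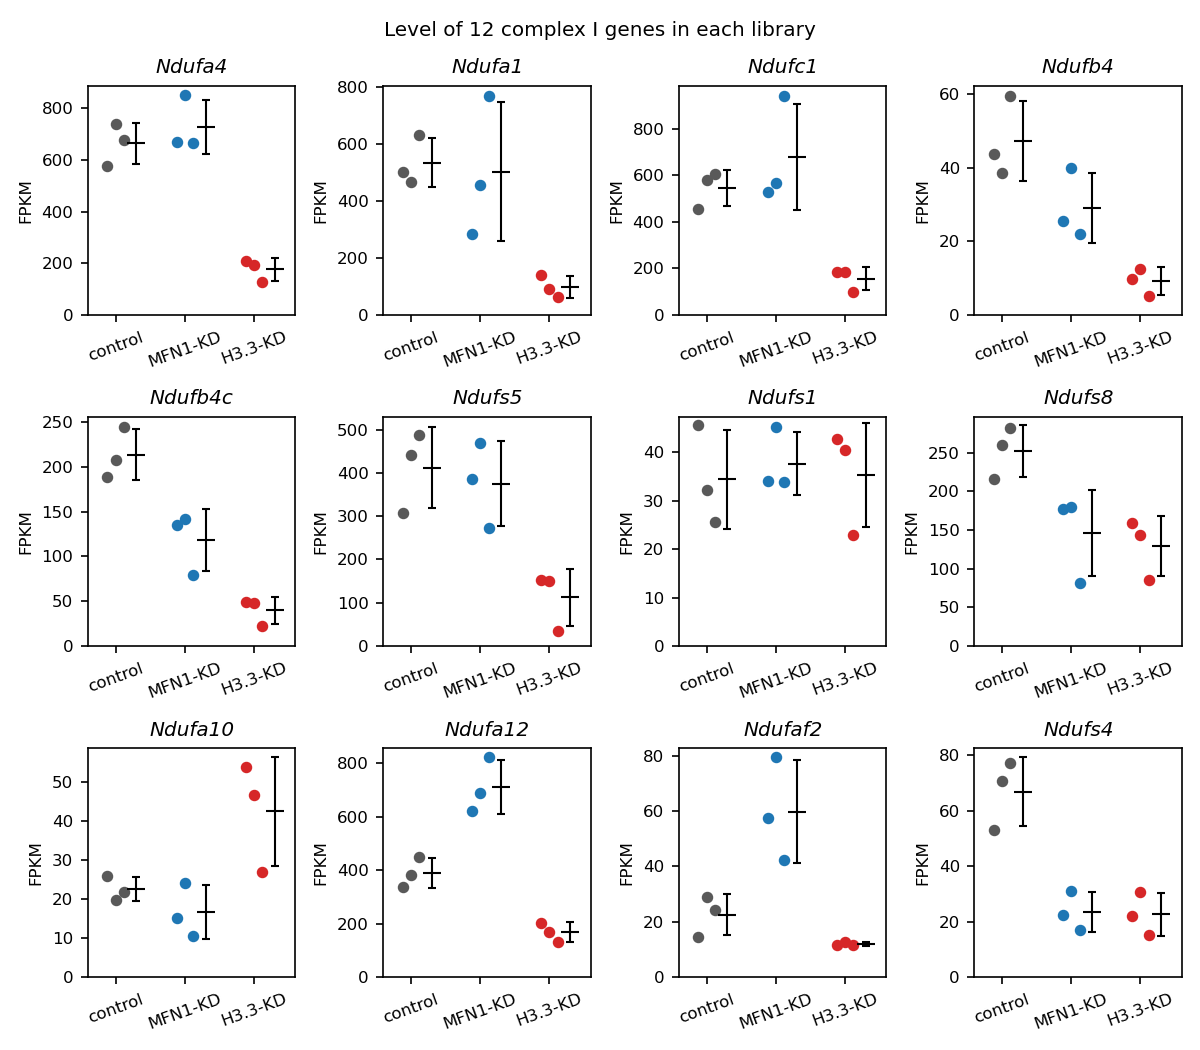
FPKM (vertical axis, linear) of 12 complex I genes in the 9 libraries: points are libraries, and lines and bars give the mean ± SD of 3 libraries per group. For Ndufa4 the H3.3-KD libraries lie at 127 to 209 FPKM, below all control libraries (578 to 737 FPKM), whereas the H3.3-KD libraries of Ndufa10 and the MFN1-KD libraries of Ndufaf2 lie above all control libraries.

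Of the 8 assembly factors 2 fell in H3.3-KD, with a median of -0.83, where 9.12% of all genes fell. Ndufaf1, which helps to build the membrane arm, was 53.8, 54.0 and 67.8 FPKM in control, against 30.0, 16.2 and 28.4 FPKM in H3.3-KD (-1.24, SE 0.29, limma adjusted p = 0.00876). Ndufaf4, which acts on the Q module, was 44.8, 53.1 and 48.2 FPKM in control, against 20.04, 23.9 and 17.2 FPKM in H3.3-KD (-1.22, SE 0.32, limma adjusted p = 0.0147), a call that was lost without the second or the third control library. Ndufaf7, a methyltransferase, stood at -0.04 (SE 0.25, limma adjusted p = 0.933), and its groups overlapped.

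Outside these roles, Ndufa4 had the smallest p of the members. It was 578, 737 and 676 FPKM in the control libraries, 209, 193 and 127 FPKM in H3.3-KD and 670, 850 and 666 FPKM in MFN1-KD. The H3.3-KD mean was 26.6% of control (-1.93, SE 0.23, limma adjusted p = 0.000302). Ndufs6b, at 1.88, 2.41 and 2.88 FPKM in control, against 2.78, 1.70 and 5.54 FPKM in H3.3-KD, gave 0.27 (limma adjusted p = 0.751), and -0.04 after upper-quartile rescaling. An exact permutation test of 3 libraries against 3 cannot go below a two-sided p of 0.1, and it gave 0.1 for Ndufa4, Ndufa1, Ndufb4, Ndufa12, Ndufs4, Ndufaf2 and Ndufa10.

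The Ndufb4 reads carried an ambiguity that the sequences make plain. Ndufb4 (chr16:37647170-37654453, minus strand, mm10) has a processed copy, Ndufb4c (chr15:73809507-73809896), which holds the whole 387-base coding sequence of Ndufb4 without a mismatch. The first 150 bases of that coding sequence, from GENCODE transcripts of GRCm38, read the same in both and are shown to make this visible, in lower case throughout because no base differs:
Ndufb4 and Ndufb4c: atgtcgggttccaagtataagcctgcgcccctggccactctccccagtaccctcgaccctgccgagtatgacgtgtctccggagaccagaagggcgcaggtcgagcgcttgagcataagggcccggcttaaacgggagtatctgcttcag
Reads within this stretch cannot be given to one locus. Ndufb4c was listed at 189, 208 and 245 FPKM in control, above Ndufb4 itself, at 49.2, 48.0 and 22.3 FPKM in H3.3-KD (-2.47, SE 0.34, limma adjusted p = 0.000609), and at 135, 142 and 79.2 FPKM in MFN1-KD. Both entries were thus lower in every H3.3-KD library, and how the reads divided between them was not given in the sources used here. All 390 bases of Ndufb4c matched Ndufb4 without a mismatch, so the entries are not separate observations. Each is nevertheless counted among the 28 falls and the 40 members without overlap in H3.3-KD. Each is also among the 23 lower calls between the knockdowns.

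Other members had copies as well. In all, 12 members had a copy of at least 90% identity in another entry that reached 1 FPKM. These include the pseudogenes Ndufb4c, Ndufa11b and Ndufs6b, for which the copy is the gene itself. Some copies were far lower than the member: those of Ndufa7 (446 FPKM in control) were at 1.32 and 2.07 FPKM. Gm15920, a processed copy of Ndufa12 with 99.5% identity over 399 bases, was 159, 162 and 190 FPKM in the control libraries, 101, 83.7 and 71.2 FPKM in H3.3-KD and 302, 323 and 403 FPKM in MFN1-KD, the same order of groups as Ndufa12. The values of Ndufa12, Ndufb4, Ndufs5 and Ndufab1 are uncertain to the extent that reads were split with such copies.

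Within the members, the more abundant genes had the lower fold changes in H3.3-KD. Of the 24 members in the upper part by mean level over all libraries (94.6 to 523 FPKM), 20 fell, with a median of -1.31. Of the 23 in the lower part, 8 fell, with a median of -0.81. Of all genes, 9.12% fell at a mean of at least 1 FPKM and 16.9% at a mean of at least 10 FPKM. Whether the relation with level is particular to the members was not tested. Across the 47 members the log2 fold change had a Pearson r of -0.52 and a Spearman rho of -0.55 with the log2 mean level. These genes share their libraries and are not independent, and the pseudocount pulls the fold change of low genes toward 0. The members were short, with a median transcript of 908 bases against 2218 for all genes tested, and the fold change had an r of 0.33 with length and of 0.20 with GC content. Over all genes tested these were 0.26 and 0.33. When trends with GC content and length were removed from each library, 32 members fell.

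MFN1-KD against control gave a different picture for the same genes. Of the 47 members, 1 fell and 1 rose (2.2% and 1.15% of all genes), with a median log2 fold change of -0.18 beside -0.08 for all genes tested. At an unadjusted p under 0.05, 8 were lower and 2 higher (14% and 9.21% of all genes), and 4 were lower and 1 higher by more than 2-fold (9.05% and 5.02% of all genes). With 2.13% of members called in each direction, the shares were near the background. In 10 members every MFN1-KD library lay below every control library and in 2 above (16.8% and 11.4% of all genes). The third MFN1-KD library was the lowest of its group for 40 of 47 members (53.4% of all genes). The median member in it lay 0.64 below the control mean on the log2 scale, against 0.08 and 0.00 in the other libraries. Over all genes tested the median difference was -0.33 in the third library, and -0.06 and 0.09 in the first and second. The control libraries are shared with the H3.3-KD comparison, so that the values of both comparisons are not independent. Without the third MFN1-KD library 0 members fell and 1 rose by limma, with a median of -0.08, and 1.38% of all genes fell.

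Ndufs4 was the member that fell in MFN1-KD. It was 22.4, 31.2 and 16.8 FPKM there, against 53.0, 70.7 and 77.04 FPKM in control (-1.50, SE 0.33, limma adjusted p = 0.0419). Every MFN1-KD library lay below every control library, and the difference from the H3.3-KD libraries given above was -0.06 (SE 0.33). Ndufaf2, an assembly factor related to Ndufa12 that holds its place before the enzyme is finished, was the member that rose. It was 14.4, 29.0 and 24.1 FPKM in control and 57.5, 79.4 and 42.4 FPKM in MFN1-KD (1.38, SE 0.32, limma adjusted p = 0.0479). Both calls were close to the threshold: leaving out any one control library removed both, and over the alternatives the adjusted p ran up to 0.175 for Ndufs4 and 0.163 for Ndufaf2.

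The next members by p did not pass the test. Ndufa12 was 622, 690 and 822 FPKM in MFN1-KD, above every control library (0.87, SE 0.22, limma adjusted p = 0.0598). Ndufa9 was 84.7, 90.1 and 76.1 FPKM, below every control library (-0.75, limma adjusted p = 0.0696). Ndufs7 was 91.6, 72.7 and 33.4 FPKM in MFN1-KD against 146, 149 and 151 FPKM in control (-1.28, limma adjusted p = 0.0735). For the core subunits Ndufs8, Ndufs3, Ndufv1, Ndufv2 and Ndufs1 the values were -0.86, -0.46, -0.26, -0.22 and 0.15.

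By role, the median log2 fold change in MFN1-KD was -0.00 for the N module, -0.81 for the Q module, -0.17 for the proximal arm, -0.18 for the distal arm and -0.40 for the assembly factors. With trends in GC content and length removed these medians were 0.35, -0.37, 0.17, 0.16 and -0.31 in the same order. Both membrane arms thus turned direction, and the N module moved from -0.00 to 0.35.

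**Figure D4:**
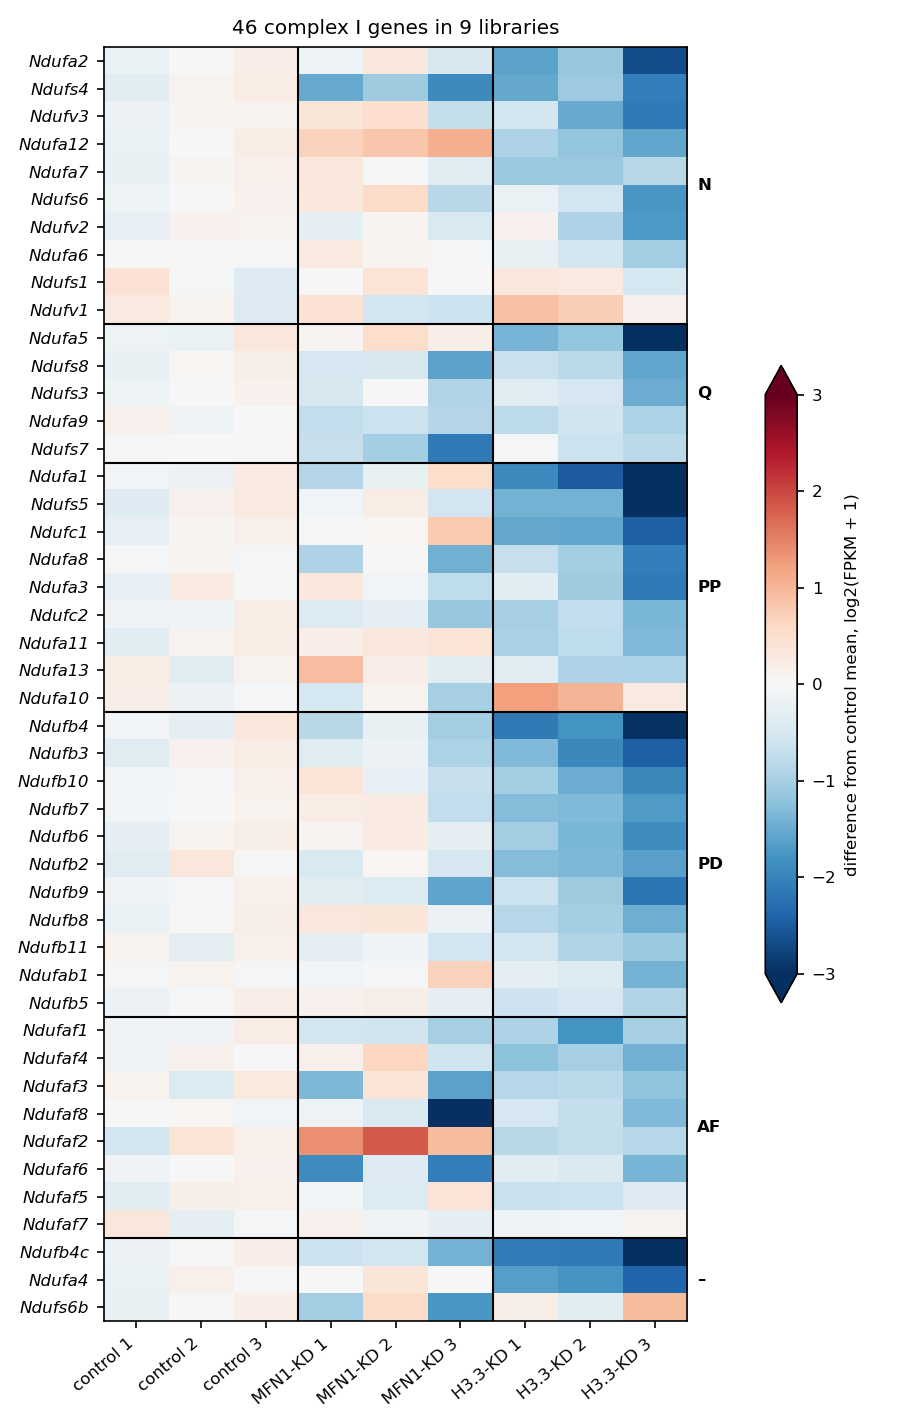
Difference of 46 of the 47 tested members from their control means on the log2(FPKM + 1) scale (colour, scale ending at 3 in either direction), in rows by role and in columns by library. The H3.3-KD columns are mostly below 0, with medians over all 47 of -0.80, -0.93 and -1.47, and the MFN1-KD medians are -0.08, -0.00 and -0.64. Over all genes tested the medians are 0.20, 0.31 and 0.23 in H3.3-KD and -0.06, 0.09 and -0.33 in MFN1-KD.

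The difference between the knockdowns was tested directly, a contrast in which the control libraries cancel from the mean. In H3.3-KD against MFN1-KD, 23 of 47 members were lower and 1 was higher (11% and 27.6% of all genes), and the groups did not overlap for the same numbers of members (14.8% and 33.1% of all genes). At an unadjusted p under 0.05, 26 were lower and 3 higher (14.5% and 33.7% of all genes). The median member differed by -0.86, where the median of all genes was 0.39. In the distal membrane arm 8 of 11 members were lower (median -1.28), in the proximal arm 5 of 9 (-1.03), in the N module 5 of 10 (-0.79), in the Q module 1 of 6 (-0.08) and among assembly factors 2 of 8 (-0.32). By limma 0 of the 7 core subunits passed this test, with 2 higher and 0 lower at an unadjusted p under 0.05. Of the 23 lower calls, 19 held in every alternative. Without the third H3.3-KD library 19 were lower, and without the third MFN1-KD library 25 (9.02% and 12.2% of all genes).

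Ndufa12 and Ndufaf2 lay on opposite sides of control in the knockdowns. Ndufa12 lay below every control library in all H3.3-KD libraries and above every control library in all MFN1-KD libraries, a difference of -2.09 (SE 0.22, limma adjusted p = 0.000109). Ndufaf2 was 11.6, 12.7 and 11.5 FPKM in H3.3-KD, below control (-0.81, limma adjusted p = 0.0824), and differed from MFN1-KD by -2.19 (SE 0.32, limma adjusted p = 0.000613). Thus the subunit and the assembly factor related to it took the same order of groups. Ndufa4 (-2.06, limma adjusted p = 0.000137), Ndufc1 (-2.12, limma adjusted p = 0.000504) and Ndufa1 (-2.29, limma adjusted p = 0.00103) were also lower in H3.3-KD than in MFN1-KD. Ndufa1 varied widely in MFN1-KD, at 286, 457 and 770 FPKM.

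In the other direction, Ndufa10 was higher in H3.3-KD than in MFN1-KD, where it was 15.2, 24.2 and 10.6 FPKM (1.31, SE 0.35, limma adjusted p = 0.0142). The call was lost with upper-quartile rescaling, with trends in GC content and length removed, and without the first or the second H3.3-KD library.

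The subunits encoded in mitochondrial DNA, which form the proton-pumping core of the membrane arm, were measured in the same libraries. All 7 fell in H3.3-KD, where 9.12% of all genes fell, with a median of -2.17 and a range from -4.18 to -1.29. The median was -1.31 with trends in GC content and length removed. The number that fell was 6 with those trends removed, with a pseudocount of 0.1, with no filter, and without the second or the third control library, any single H3.3-KD library or the first MFN1-KD library. mt-Nd1, next to the ubiquinone channel, was 13501, 13209 and 12967 FPKM in control, against 1890, 1826 and 1851 FPKM in H3.3-KD (-2.83, SE 0.13, limma adjusted p = 5.87e-06). The smallest change, that of mt-Nd4l, was -1.29 (limma adjusted p = 0.0424). In MFN1-KD 0 of 7 passed by limma (2 lower and 2 higher at an unadjusted p under 0.05, and 1 lower by adjusted p without the second MFN1-KD library), and mt-Nd3, with the smallest p, stood at -0.75 (limma adjusted p = 0.0938). These 7 transcripts took 2.28 to 2.78% of all FPKM in control, 0.556 to 0.658% in H3.3-KD and 2.58 to 2.78% in MFN1-KD. The fall was not particular to complex I: of all 13 mitochondrially encoded protein genes, these 7 included, 12 fell in H3.3-KD, with a median of -1.88. The libraries were primed on polyA, so all these are levels of RNA that such priming captured, and the tails of these transcripts were not measured. By annotation mt-Nd6, on the minus strand, overlaps the end of mt-Nd5, and the kit does not mark strand.

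Assembly factors whose symbols lie outside the rule moved in both directions. Of 13 listed, 12 were found and tested. In H3.3-KD 4 fell (Tmem126a, Nubpl, Dmac1 and Lyrm2) and 1, Tmem186, rose, where 9.12% of all genes fell and 21.8% rose. Their median was 0.11, against 0.26 for all genes, and the difference from the assembly factors inside the rule was not tested. Tmem186, a membrane protein that works with Ndufaf1, was 3.98, 5.31 and 4.68 FPKM in control, against 16.0, 14.6 and 27.6 FPKM in H3.3-KD (1.80, limma adjusted p = 0.00314). In MFN1-KD Ecsit, also a partner of Ndufaf1, was lower, at 13.6, 10.9 and 4.57 FPKM against 36.3, 31.0 and 24.6 FPKM in control (-1.66, limma adjusted p = 0.0431), and it was higher in H3.3-KD than in MFN1-KD (2.604, limma adjusted p = 0.000462). Several of these calls changed with the library left out: without the second control library 1 of them fell in H3.3-KD, and without any single control library 0 fell in MFN1-KD. In the same settings 5.44% of all genes fell in H3.3-KD, and 0 to 0.284% fell in MFN1-KD.

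Of 11 transcription factors and coactivators known for nuclear respiratory genes, 9 were tested. In H3.3-KD 4 rose and 0 fell by limma, with the same counts at an unadjusted p under 0.05. Among all genes tested 21.8% rose and 9.12% fell by limma, and 28.9% and 13.2% did so at an unadjusted p under 0.05. Esrra, an orphan nuclear receptor, was 2.73, 2.69 and 1.94 FPKM in control, against 26.4, 27.0 and 46.0 FPKM in H3.3-KD (3.27, SE 0.33, limma adjusted p = 0.000168). Nrf1, nuclear respiratory factor 1, was 47.6, 42.7 and 30.4 FPKM in control, against 116, 100 and 165 FPKM in H3.3-KD (1.63, SE 0.26, limma adjusted p = 0.00147). Esrrb (1.58) and Yy1 (1.02) were the others, and the number that rose was 3 with median-ratio and 2 with upper-quartile rescaling. Leaving out the second or the third control library, or the first H3.3-KD library, also left 2. Gabpa, which encodes an ETS factor, stood at -0.13 (limma adjusted p = 0.657). In MFN1-KD 1 factor, Yy1, rose (1.55, limma adjusted p = 0.0404), where 1.15% of all genes rose.

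The other respiratory complexes and the mitochondrial ribosome are the sets most like complex I. In H3.3-KD 9.12% of all genes fell and 21.8% rose. Of 60 tested genes of complexes II to V, 30 fell and 3 rose there (median -0.92), with 0 rises under either rescaling. Atp5j, a subunit of the ATP synthase, led these calls at -1.98 (limma adjusted p = 0.000168). Of 78 mitochondrial ribosomal protein genes, 31 fell and 4 rose (median -0.74), led by Mrps18c at -2.54 (limma adjusted p = 0.000278). Without the third control library 18 of them fell, and 5.14% of all genes. In MFN1-KD the limma counts were 2 and 5 lower and 0 higher (2.2% and 1.15% of all genes). At an unadjusted p under 0.05, 13 and 36 were lower, 4 and 0 higher (14% and 9.21% of all genes). The calls were led by Uqcc1, an assembly factor of complex III (-1.89, limma adjusted p = 0.0479), and Mrpl10 (-1.89, limma adjusted p = 0.0283). Between the knockdowns, 25 genes of complexes II to V were lower and 7 higher in H3.3-KD. Of the ribosomal protein genes 16 were lower, led by Mrps33 (-2.32), and 15 higher. Among all genes 11% were lower and 27.6% higher. With upper-quartile rescaling the ribosomal protein genes numbered 30 lower and 8 higher, and 18.2% of all genes were lower. Whether complex I differed from these sets was not tested.

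Promoters were read for motifs of factors known at nuclear respiratory genes, in the 250 bases before the RefSeq start and on both strands. An entry was found for 40 of 49 members, and for 27025 genes in all. The NRF1 motif, GCGCA and GCGC with any 1 base between them, was present in 7 of 40 members (17.5%) and in 4.23% of all genes. These members were Ndufa11, Ndufa5, Ndufa8, Ndufaf4, Ndufb4, Ndufs5 and Ndufs6, of which 6 were among the 25 members with an entry that fell in H3.3-KD and 1 among the other 15. The ETS motif CCGGAAG was present in 5 members (12.5%, all genes 7.83%), the ERR motif TNAAGGTCA in 1 (2.5%, all genes 1.3%), the NF-Y motif CCAAT in 14 (35%, all genes 37.5%) and the YY1 motif AAGATGGCG in 0 (all genes 0.71%). The shares of all genes include genes too low to be tested here, which most members were not. Neither these shares nor the split of 6 and 1 was tested. A match describes letters and no binding.

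The bases just upstream of 3 members are shown: Ndufa4, with the smallest p in H3.3-KD (chr6:11907498-11907700), Ndufa10, with the highest fold change (chr1:92473861-92474008), and Ndufb4, the one member with both an NRF1 and an ERR motif (chr16:37654454-37654618). All are on the minus strand of GRCm38.p6 and are written 5′ to 3′ along the gene, and they end where the annotated transcript begins. Capitals mark motif matches, which in the stretch of Ndufb4 are an NRF1 and an NF-Y motif, beginning 191 and 151 bases before the RefSeq start.
Ndufa4: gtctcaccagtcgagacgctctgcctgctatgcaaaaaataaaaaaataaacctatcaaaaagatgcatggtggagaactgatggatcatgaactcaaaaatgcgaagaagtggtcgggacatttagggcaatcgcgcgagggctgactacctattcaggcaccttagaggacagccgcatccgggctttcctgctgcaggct
Ndufa10: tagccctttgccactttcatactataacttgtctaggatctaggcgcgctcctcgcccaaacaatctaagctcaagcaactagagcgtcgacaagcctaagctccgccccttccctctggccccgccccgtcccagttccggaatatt
Ndufb4: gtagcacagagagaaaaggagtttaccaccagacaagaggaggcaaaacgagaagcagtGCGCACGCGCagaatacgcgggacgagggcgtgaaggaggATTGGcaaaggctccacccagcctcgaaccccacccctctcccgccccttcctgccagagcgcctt
Ndufa4, the member with the smallest p in H3.3-KD, and Ndufa10, the one with the highest log2 fold change, had no match to any of the 5 motifs in the 250 bases, and the stretch of Ndufb4 holds 1 of its 3 NRF1 matches. Ndufb4c had no promoter entry.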

How the data were processed

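RNA of pooled 8-cell mouse embryos was measured by Smart-Seq2 in 9 libraries, 3 per group, grouped by their labels. Per the labels and methods, the authors removed adapters (cutadapt 1.16), aligned with STAR on mm10, and deposited FPKM per gene, rounded to 2 decimals. The FPKM program, annotation and strand setting were not given in the sources used here, and the kit does not mark strand, so overlapping antisense genes cannot be told apart. The files hold no counts, so the depth is unknown and no counting interval could be given.

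Genes whose mean reached 1 FPKM were fitted on log2(FPKM + 1) with limma 3.58.1 in R 4.3.3 (trend and robust) over all 9 libraries, with Benjamini-Hochberg adjustment over 13011 genes. Fold changes are on that scale, which understates those of low genes. Copies were found with blastn 2.17.0+. The scripts were tested on simulated data. Of 200 genes lowered there by 2 on the log2 scale in H3.3-KD, 135 (67.5%) were recovered, and 7 unchanged genes were called. A gene that did not pass may therefore still have changed.

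The members, lists and tests were chosen with earlier results of these data known. Genes named were the core subunits, the targeted genes, members without a role, the 3 smallest p and the highest fold change per role in H3.3-KD, the 5 smallest p and 2 furthest the other way in the other comparisons, and the smallest p of each outside list. 1 gene this rule names is not reported here. Ndufs5, Ndufab1, the motif genes and copies, the outside assembly factors, the factors beside Esrra and Yy1, and the promoter of Ndufb4 were added after values were seen. Alternatives were another pseudocount, filters, rescalings, 6 libraries only, a replicate block, GC and length trends removed, and each library left out.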

Additional observations from a re-analysis of the deposited data

Results flagged for a closer look

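Ndufa12 and Ndufaf2 stood out because they lay on opposite sides of control in the knockdowns: every H3.3-KD library lay below all control libraries and every MFN1-KD library above them, and the difference between the knockdowns passed its own test. It was -2.09 for Ndufa12 and -2.19 for Ndufaf2 (limma adjusted p = 0.000109 and 0.000613). Against control, the fall of Ndufa12 in H3.3-KD and the rise of Ndufaf2 in MFN1-KD passed the test, and the other changes of this pair did not. Gm15920, a copy of Ndufa12 with 2 mismatches over 399 bases, had the same order of groups, and reads that cover neither mismatch within that stretch could have come from either. These 2 were picked out of 47 members after their values were seen.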

How the results depend on the processing

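In H3.3-KD all 28 falls kept their direction in the 17 alternatives tried and 18 stayed under the threshold in every one. The number that fell was 35 with median-ratio and 36 with upper-quartile rescaling, 32 with GC and length trends removed, and 18 to 30 with 1 library left out (18 without the third control library, 0 to 1 higher). Of all genes, 11.2% fell with those trends removed and 5.14 to 12.5% with 1 library left out. Rescaling moved the median of all genes from 0.26 to -0.00 and -0.07, the calls over all genes from 1187 lower and 2841 higher to 1778 and 2078 or 1968 and 1888, and the members' median to -1.45 with upper quartiles (median-ratio -1.37). The direction turned for Ndufs1 (-0.31 and -0.39 with rescaling, -0.39 with trends removed), Ndufs6b (-0.0397 with upper quartiles) and Ndufv1 (-0.25 with trends removed).

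In MFN1-KD the number that fell was 0 with no filter, with only the 6 libraries compared and with trends removed, 3 at a mean of at least 10 FPKM, and 0 to 3 with 1 library left out. The number that rose was 0 with a pseudocount of 0.1, with no filter and with the 6 libraries, 2 at 10 FPKM and with trends removed, and 0 to 1 with 1 library left out. Calls over all genes went from 436 to 0 with the 6 libraries, 2 with no filter and 657 at 10 FPKM. With trends removed the median was 0.09, Ndufv1 0.23 and Ndufs3 0.0586. The summed FPKM was 7557 with upper quartiles (8484 as deposited).

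Between the knockdowns the median was -1.35 with upper quartiles, and the number higher was 0 with upper quartiles or trends removed and 0 to 4 with 1 library left out. With 1 library left out, H3.3-KD values that changed sign ranged from -0.16 to 0.30 for Ndufs1, -0.18 to 0.13 for Ndufaf7 and -0.075 to 0.56 for Ndufs6b, and in MFN1-KD from -0.037 to 0.37 for Ndufs1. The cause of these shifts was not tested.

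Deviations from group means correlated at -0.05 to 0.16 between same-numbered libraries and at -0.12 to 0.07 between others. The highest values, 0.16 and 0.14, were of control 2 with MFN1-KD 2 and of H3.3-KD 3 with MFN1-KD 3. Whether the numbers pair the libraries was not settled by these values. With the replicate number as a block 28 members fell in H3.3-KD, 0 fell and 0 rose in MFN1-KD (31 calls over all genes), and 22 were lower and 2 higher between the knockdowns.

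With FPKM alone and 3 pools per group, low members such as Ndufaf3 and Ndufs6b could not be assigned a counting error.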
